A study of Mus musculus with 2 samples.

Results

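Interferon-stimulated genes are the transcripts that a cell makes when an interferon binds its receptor. A list of 35 such genes was followed by symbol through both single-cell libraries of dorsal skin. The files held a row for 33 of them among 32285 genes, and Mx1 and Mx2 were not analysed here. The control library came from 15 pooled male C3H/HeN mice that received vehicle, and the TP library came from 15 pooled male C3H/HeN mice that received testosterone propionate under the skin at 0.5 mg per day, a model of androgenetic alopecia. The backs of the mice were shaved at 7 weeks of age and whole dorsal skin was taken at 9 weeks. A TP group that also received a CXCL12-neutralizing antibody was not analysed here. With 1 pooled library per condition there was no test between conditions. Every interval below is a 95% interval that covers counting error only, not differences between cells, mice, dissociations or libraries.

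Type I and type III interferons act through JAK1 and TYK2, which phosphorylate STAT2. STAT2 and IRF9 are parts of a complex that binds a short element, the interferon-stimulated response element, in the promoters of its targets. Many of the products sense or degrade viral RNA, block translation, or tag proteins with the ubiquitin-like ISG15, and in skin keratinocytes, fibroblasts, endothelial cells and myeloid cells can all make them.

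Promoters of many of these genes hold letters that match the response element. Such sequences are shown first, for those members with a match upstream of the start that had the most UMIs or the most extreme ratios. The window ran from 250 bases before to 50 bases after each RefSeq transcript start in GRCm38.p6, the sequence of the mm10 build used for the counts. The motif searched was GAAANNGAAA on either strand, where N is any base, and overlapping matches were allowed. Of the 33 measured members 26 had a promoter in the reference and 16 of these (61.5%) held the motif, against 3.99% of 27025 genes. Capitals mark the matches, read as TTTCNNTTTC where the match lay on the other strand.
Isg15 (chr4:156200855-156200916, minus strand): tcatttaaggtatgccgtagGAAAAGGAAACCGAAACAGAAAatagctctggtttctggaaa
Ddx60 (chr8:61928014-61928086, plus strand): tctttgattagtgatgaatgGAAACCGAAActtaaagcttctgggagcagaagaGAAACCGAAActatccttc
Bst2 (chr8:71537567-71537622, minus strand): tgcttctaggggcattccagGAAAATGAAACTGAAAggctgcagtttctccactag
Rsad2 (chr12:26456543-26456592, minus strand): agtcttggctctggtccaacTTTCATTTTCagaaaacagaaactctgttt
Stat2 (chr10:128270256-128270305, plus strand): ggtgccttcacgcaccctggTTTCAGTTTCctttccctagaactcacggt
Trim30a (chr7:104465200-104465249, minus strand): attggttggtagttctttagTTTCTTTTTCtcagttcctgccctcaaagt
Isg15 held 3 overlapping copies, the first starting 78 bases before the start site, and Bst2 and Ddx60 held 2 each. Ddx58, Ifih1 and Eif2ak2 matched only after the start site. Ifit1, Ifit3, Ifit3b, Gbp2, Gbp3, Oas1a and Oas3 also matched upstream and are not shown. No match lay in the windows of Cmpk2, Herc6, Ifi35, Ifi44, Ifit2, Irf7, Irf9, Oasl1, Oasl2 and Xaf1, which says only that these letters were not there. A match likewise says only that the letters were there, and binding was not tested. The reference held no promoter for Dhx58, Ifi27, Oas2, Parp14, Rtp4, Usp18 and Zbp1.

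The libraries differed in depth, cell recovery and immediate-early genes. After filtering, control held 39076 cells with a median of 2049 UMIs (unique molecular identifiers, 1 per captured transcript) and TP 18542 cells with a median of 4845. Mitochondrial counts above 10% removed 7.58% of control barcodes and 22.6% of TP barcodes. Of all the barcode sequences, 303 occurred in both libraries, and 186 did so among the kept cells. A list of 12 immediate-early and heat shock genes had a summed level 2.01 times as high in TP, with Fos, Fosb, Junb, Egr1, Atf3 and Ier2 at 2.61 to 4.03 times, Jun at 1.75, Dnajb1 at 2.62 and the other 4 heat shock genes at 0.741 to 1.28, and its part in the results below was not tested. Cells were grouped into 17 named classes and 8 unnamed clusters, with the 33 members kept out of the clustering, and "-like" means that a name rests on marker genes.

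Summed over the whole library, the members were higher in TP. They took 24827 UMIs in control and 42336 in TP, or 235 and 319 CPM (UMIs per 1000000 of the total), with a TP over control ratio of 1.36 (1.34 to 1.38). The median log2 ratio was 0.60 over the 33 members and -0.25 over the 19579 genes whose UMIs, both libraries added, came to 20 or more. All 33 members passed that minimum, 26 had a ratio above 1, and 28 lay above the median gene, whose own ratio was below 1. At least 2-fold higher in TP were 9 of 33 (Ifit1, Ifit3, Ifit3b, Ifi44, Rsad2, Oasl1, Oas2, Zbp1 and Trim30a), against 8.55% of all genes, and none was at least 2-fold lower, against 12.4% of all genes. With TMM factors 13 of 33 were at least 2-fold higher, against 11.7% of all genes, and none lower, against 7.49%.

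Much of this whole-library value moved with which cells each library held. On the scale of totals, when every cluster was given the share of UMIs it had in control, the ratio of the sum was 0.931. Then 1 of 33 members, Rsad2, was still at least 2-fold higher, a share near the 3.84% of all genes on that weighting. None was lower, against 5.13%. The Rsad2 call at control shares was not checked with single cells left out. Control shares were not combined with TMM factors, so 0.931 holds on the scale of totals alone. IFE suprabasal-like cells (the differentiating layers of the interfollicular epidermis) supplied 16.8% of control and 38.2% of TP UMIs. Dermal fibroblast-like cells went from 0.389% to 3.36% and macrophage-like cells from 0.157% to 0.862%, while inner root sheath-like cells, a layer of the growing hair, went from 13.6% to 4.03%. Fewer cells of a type captured and fewer cells in the skin cannot be told apart. With TMM factors in place of totals the ratio was 1.62, and Stat2 (1.19) and Bst2 (1.15), both under 1 by totals, lay above 1. A single gene also weighed on the sum: without Ifi27 the ratio was 1.19 (1.17 to 1.21).

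**Figure D1:**
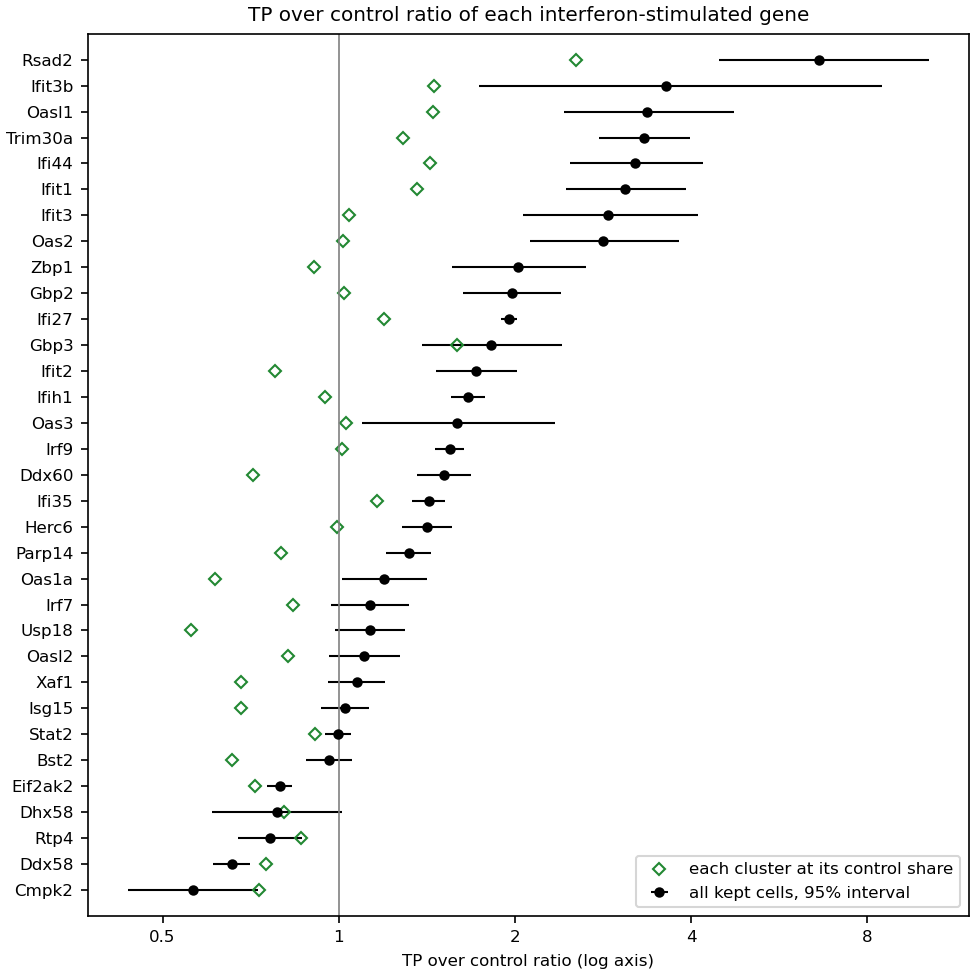
TP over control ratio of each of the 33 members on a log axis, pooled over all kept cells (with counting intervals) and with clusters weighted by their control shares. Pooled ratios ran from 0.564 for Cmpk2 to 6.63 for Rsad2, and with control shares most members lay nearer to 1 or below it.

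The highest ratios among members with at least 100 UMIs over both libraries were those of Rsad2, Oasl1 and Trim30a. Rsad2, which encodes viperin, an enzyme that makes a chain-terminating ribonucleotide, had 28 control UMIs against 233 in TP, a ratio of 6.63 (4.47 to 10.2), and 2.54 at control shares. Oasl1, a 2-5A synthetase-like protein without synthetase activity, had 46 and 194 UMIs, a ratio of 3.36 (2.42 to 4.74), and 1.45 at control shares. Trim30a, a tripartite motif protein, had 153 and 638 UMIs, a ratio of 3.32 (2.78 to 3.99), and 1.29 at control shares. All 3 kept their direction at control shares, and the sizes were closer to 1. With the 10 cells with most member UMIs left out of each library, the pooled ratios were 3.93, 2.87 and 3.34 in the same order. Of the 233 TP UMIs of Rsad2, 40 lay in a single IFE basal-like cell. The ratios at control shares were not computed without such cells.

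The IFIT family binds foreign RNA caps and ends, and its genes lie side by side on chromosome 19. Ifit1 had 92 control UMIs against 356 in TP, a ratio of 3.08 (2.44 to 3.92). Ifit2 had 236 and 509 UMIs, a ratio of 1.72 (1.47 to 2.01), which was 0.777 at control shares. Ifit3 and Ifit3b, near-identical copies whose reads the counting could have split, had 45 and 163 UMIs, a ratio of 2.89, and 9 and 41 UMIs, a ratio of 3.63 (1.74 to 8.49). The 4 genes were thus all higher in the pooled TP library, and at control shares Ifit2 alone lay below 1 and Ifit3 was at 1.04.

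RNA sensors did not share 1 direction in the pooled data. Ifih1, which encodes the sensor MDA5 of long double-stranded RNA, was at 11.9 CPM in control against 19.8 in TP, giving a ratio of 1.66 (1.55 to 1.78) that was 0.947 at control shares. Ddx58 encodes RIG-I, the sensor of 5′-triphosphate RNA, and was lower in TP, with 16.2 and 10.6 CPM and a ratio of 0.656 (0.611 to 0.704). Ddx60, a helicase linked to RIG-I signalling, was at 5.18 and 7.83 CPM, a ratio of 1.51 (1.36 to 1.68) that was 0.714 at control shares. Dhx58, the related regulator LGP2, had 126 and 124 UMIs and a ratio of 0.784 (0.607 to 1.01). Among these 4 genes Ddx58 was the one whose counting interval lay below 1, and at control shares all 4 lay below 1, with Ddx58 at 0.750 and Dhx58 at 0.807.

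The 2-5A synthetases make the activator of RNase L, and Eif2ak2 encodes PKR, the kinase that stops translation on double-stranded RNA. Eif2ak2 was lower in TP, with 30.4 and 24.1 CPM, a ratio of 0.793 (0.755 to 0.833) and 0.719 at control shares. Oas2 had 62 and 220 UMIs and Oas1a 238 and 357, with ratios of 2.83 and 1.20 that were 1.01 and 0.614 at control shares. Oas3 and Oasl2 had ratios of 1.59 and 1.11.

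Of the ISG15 system, Herc6 was higher in the pooled TP data, and Isg15 and Usp18 were not separated from 1 by counting error. Isg15 itself was at 7.39 CPM in control against 7.57 in TP, giving a ratio of 1.02 (0.932 to 1.13) and 0.682 at control shares. Usp18, which removes ISG15 and dampens the receptor, had a ratio of 1.13 (0.985 to 1.30). Herc6, the mouse ligase for ISG15, had 6.12 and 8.66 CPM, a ratio of 1.41 (1.28 to 1.56) that was 0.995 at control shares. The pooled ratio of Herc6 thus stood above 1 and that of Isg15 within its counting error of 1.

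Of the transcription factors, Irf9 and Stat2, whose products are parts of the complex that binds the response element, had different pooled ratios. Irf9 was at 17.7 CPM in control against 27.3 in TP, giving a ratio of 1.55 (1.46 to 1.64), and 1.01 at control shares. Stat2 was at 24.1 and 24.0 CPM, a ratio of 0.997 (0.946 to 1.05). Irf7, which drives interferon genes, had a ratio of 1.13 (0.971 to 1.32).

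The remaining members are effectors of several kinds. Ifi27, a mitochondrial and nuclear envelope protein, had more UMIs than any other member, 5455 in control and 13404 in TP, or 51.6 and 101 CPM, a ratio of 1.96 (1.90 to 2.02) and 1.19 at control shares. Ifi35 was at 13.4 and 19.1 CPM, a ratio of 1.42 (1.33 to 1.52), and 1.16 at control shares. Parp14, an ADP-ribosyltransferase, had 7.75 and 10.2 CPM, a ratio of 1.32 (1.21 to 1.44) that was 0.795 at control shares. Bst2, the membrane tether that holds budding virions, was at 8.38 and 8.07 CPM, a ratio of 0.963 (0.880 to 1.05) and 0.656 at control shares. The guanylate-binding GTPases Gbp2 and Gbp3 had pooled ratios of 1.98 and 1.82. Ifi44 stood at 3.21, Zbp1, a sensor of Z-form nucleic acid, at 2.03 and Xaf1 at 1.07.

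At the other end were Cmpk2 and Rtp4. Cmpk2, a mitochondrial nucleotide kinase, had 151 control UMIs against 107 in TP, a ratio of 0.564 (0.436 to 0.728), and 0.730 at control shares. Rtp4, a receptor-transport protein, had 520 and 498 UMIs, a ratio of 0.763 (0.673 to 0.864), and 0.863 at control shares. Cmpk2 (chr12:26469117-26479837) lies next to Rsad2 (chr12:26442743-26456452), so the lowest and the highest pooled ratios belonged to neighbouring genes. Both Cmpk2 and Rtp4 drew most of their control UMIs from dermal papilla-like cells, the mesenchymal cells at the base of the follicle: 69.5% and 74.2% in control and 31.8% and 46.4% in TP. Within those cells Cmpk2 went from 9.11 to 3.65 CPM, a ratio of 0.400 (0.263 to 0.594), and Rtp4 from 33.5 to 24.8 CPM, a ratio of 0.739 (0.625 to 0.873).

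Levels differed far more between cell classes than between libraries. In TP the summed members took 2341 CPM in macrophage-like, 2338 in neutrophil-like and 1932 in endothelial-like cells, 875 in dendritic and Langerhans-like and 790 in dermal fibroblast-like cells. Control gave 2437, 4405, 2110, 893 and 999 CPM in the same order, the neutrophil-like value resting on 8 cells and 41 member UMIs. An unnamed myeloid cluster led by H2-Aa and Ccr2 had 2085 CPM in control and 2384 in TP. Macrophage-like, neutrophil-like and endothelial-like cells and this unnamed cluster had the highest sums in both libraries. In control the dendritic and Langerhans-like cells lay under the dermal fibroblast-like cells. By median rank over single members, the neutrophil-like cells of TP were at 7. In TP the interval of the neutrophil-like level (1964 to 2763) overlapped those of the macrophage-like (2254 to 2432) and endothelial-like levels (1829 to 2038), while the latter pair did not overlap. Keratinocytes of the epidermis and upper follicle lay in the middle, at 308 to 334 CPM in TP, and the growing hair at the bottom, with 111 CPM in hair matrix-like, 97.8 in inner root sheath-like and 59.0 in hair shaft-like cells in TP and 153, 130 and 69.0 in control.

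**Figure D2:**
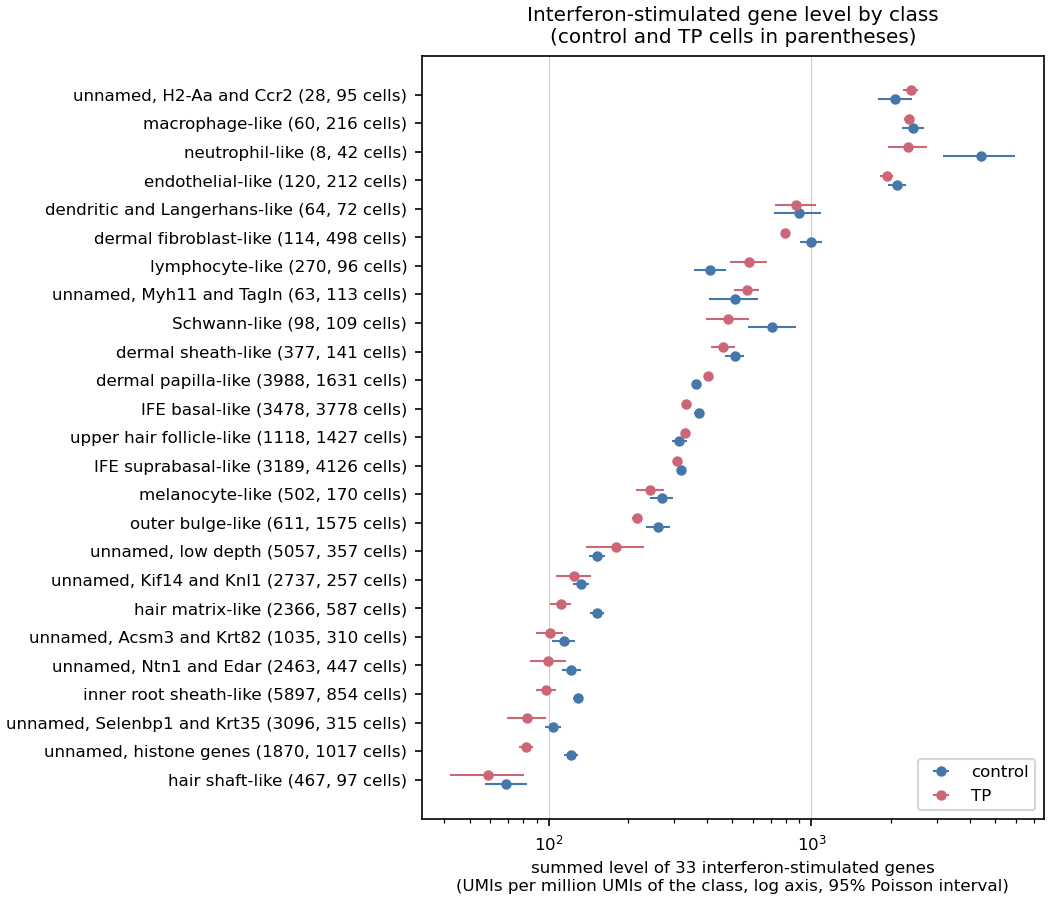
Summed level of the 33 members in CPM (log axis) in each named class and unnamed cluster and each library, with exact Poisson intervals. Macrophage-like, neutrophil-like and endothelial-like cells sit near or above 1932 CPM in both libraries and hair shaft-like cells below 70 CPM.

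Members differed in the classes that held their UMIs. Isg15 supplied 21 of the 41 control and 65 of the 138 TP member UMIs of neutrophil-like cells. Macrophage-like cells held 48.4% of all control Oas2 UMIs and 56.8% of those in TP, and 24.0% and 44.4% of the Ddx60 UMIs. That class also supplied a larger share of all UMIs in TP. Within it Oas2 went from 181 CPM in control to 109 in TP, and Ddx60 from 790 to 403. Ifit1 had 51.1% of its control UMIs and 29.5% of its TP UMIs in endothelial-like cells. Ifi27 supplied 36.1% of control and 45.0% of TP member UMIs in IFE suprabasal-like cells and 2.80% of those in TP macrophage-like cells. Irf9 had 62.0% of its own TP UMIs in IFE suprabasal-like cells, whose share of all TP UMIs is given above. Isg15 was unevenly spread among myeloid cells, with 0 UMIs in control macrophage-like cells and 36.7 CPM in those of TP.

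On the scale of class totals the excess of the pooled TP library was not seen within most classes. Of the 11 classes with at least 100 cells per library, the summed members had a ratio above 1 in 2 and an interval above 1 in 1, the dermal papilla-like cells. The other class, upper hair follicle-like cells, had a ratio of 1.055. It was 0.979 without the 3 members with most UMIs and 0.999 at a resolution of 0.5. The interval lay below 1 in 6: IFE basal-like, IFE suprabasal-like, dermal fibroblast-like, inner root sheath-like, outer bulge-like and hair matrix-like cells. The median log2 ratio of all genes was itself below 0 in every one of these classes, from -0.34 to -0.09, and with TMM factors in place of totals 7 of the 11 ratios lay above 1 (range 0.781 to 1.24). The sign of a class ratio near 1 therefore depended on the scale. Hair matrix-like (0.728, and 0.781 with TMM) and inner root sheath-like cells (0.754 and 0.813) were below 1 on both scales. So were outer bulge-like (0.833 and 0.9495) and dermal sheath-like cells (0.903 and 0.984). With called doublets kept the inner root sheath-like ratio was 0.910.

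**Figure D3:**
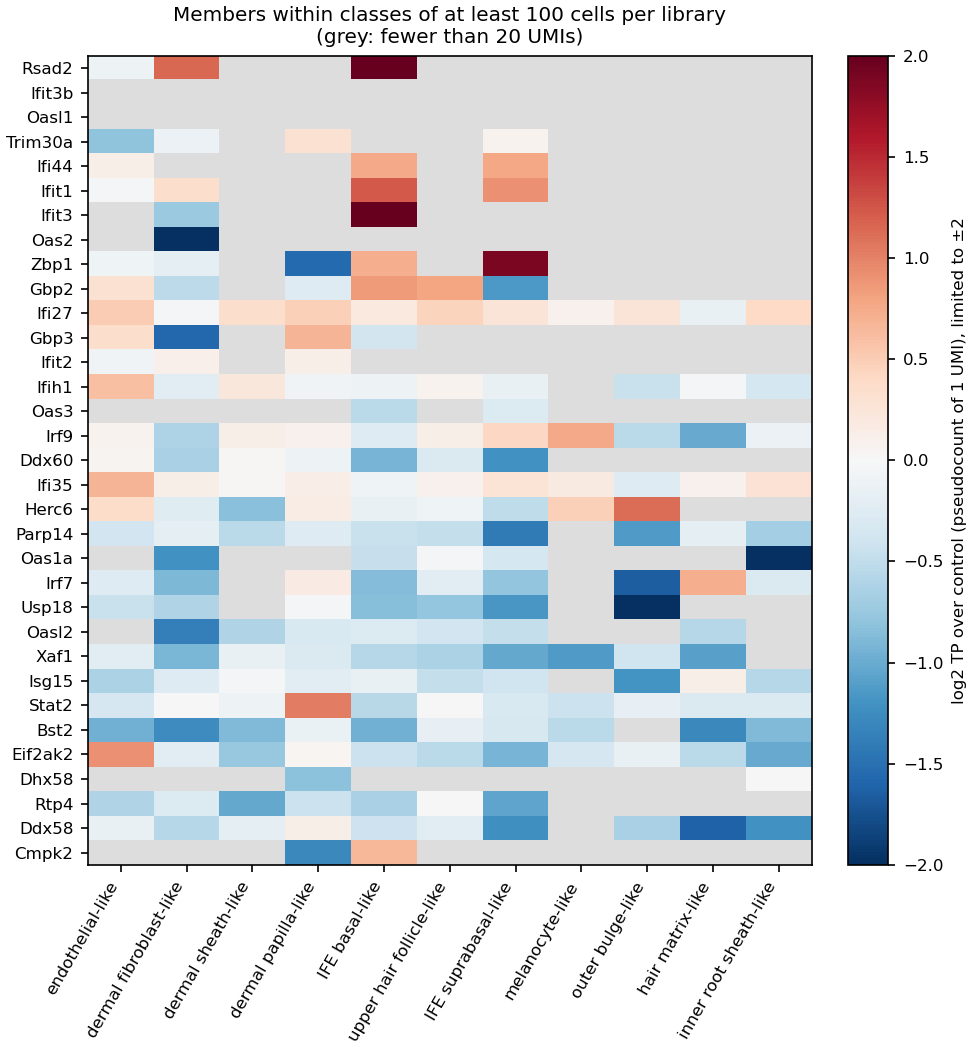
Log2 TP over control ratio of the members in the 11 classes with at least 100 cells per library, for members with at least 20 UMIs in the class. Ifi27 and Ifi35 are above 0 in 9 of 11 classes, and Bst2, Parp14 and Xaf1 are below 0 in all 10 classes where each passed that minimum, on the scale of class totals.

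IFE suprabasal-like cells held most member UMIs, 5692 in control and 15626 in TP, or 320 and 308 CPM, a ratio of 0.962 (0.934 to 0.992) that was 1.24 with TMM. Ifi27, Ifi35 and Irf9 were higher, with ratios of 1.20 (1.14 to 1.26), 1.22 (1.07 to 1.38) and 1.33 (1.22 to 1.46). Eif2ak2 went from 34.0 to 17.8 CPM, a ratio of 0.525 (0.473 to 0.583), and Stat2 from 28.02 to 22.7 CPM, a ratio of 0.810 (0.728 to 0.901) that lay above 1 with TMM. Of 24 members that passed the minimum of 20 UMIs here, 1 (Zbp1, with 1 control UMI and 20 in TP, a ratio of 7.01 and an interval of 1.12 to 291) was at least 2-fold higher, against 2.61% of genes. Another 7 (Ddx58, Ddx60, Usp18, Xaf1, Parp14, Rtp4 and Gbp2) were at least 2-fold lower, against 16% of genes, and with TMM 1 was. Most of these cells lay in clusters 7 and 12 in control and in clusters 14 and 12 in TP, cluster 14 being led by Hrnr, Flg2 and Lor, genes of the cornifying layers. The summed ratio was 0.932 in cluster 7, 0.923 in cluster 12 and 0.934 in cluster 14.

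IFE basal-like cells, the dividing layer, had 372 CPM in control against 334 in TP, giving a ratio of 0.899 (0.860 to 0.940) that was 1.03 with TMM. Ifi27 went from 105 to 120 CPM, a ratio of 1.14 (1.05 to 1.24). Stat2 had a ratio of 0.680 (0.576 to 0.804), Eif2ak2 0.740 (0.648 to 0.844) and Bst2 0.517 (0.373 to 0.716). Here 27 members passed, 3 (Ifit1, Ifit3 and Rsad2) were at least 2-fold higher, against 2.05% of genes, and none was 2-fold lower, against 6.38%. Rsad2 was at 0 UMIs in control against 41 in TP. That is 6.63-fold higher against a floor of 3 UMIs over the class in control, and the counting interval of the ratio began at 5.15. But 40 of the 41 lay in a single TP cell, which also held 15 of the 28 Ifit1 UMIs and 22 of the 24 Ifit3 UMIs of the class. Without that cell the TP class held 1 Rsad2 UMI, the Ifit1 ratio was 1.26 and the Ifit3 ratio 0.486, so all 3 calls rest on it.

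In dermal papilla-like cells the members had 364 CPM in control against 405 in TP, giving a ratio of 1.11 (1.07 to 1.16) that was 0.912 without Ifi27, Eif2ak2 and Stat2. Stat2 was at 24.1 CPM in control and 48.9 in TP, with 278 and 456 UMIs and a ratio of 2.03 (1.74 to 2.36), and Ifi27 at 84.5 and 118 CPM, a ratio of 1.40 (1.28 to 1.52). Eif2ak2 had 48.8 and 49.98 CPM, a ratio of 1.02 (0.904 to 1.16). Of 24 members passing, 1 (Stat2) was at least 2-fold higher, against 4.83% of genes, a call lost at a limit of 5% mitochondrial counts, and 2 (Zbp1 with 28 and 7 UMIs, and Cmpk2) were at least 2-fold lower, against 9.66%. The sum of the immediate-early and heat shock list was 3.69 times as high in TP in these cells, the highest such ratio of the 11 classes, and its part in the value of Stat2 was not tested. Most control cells lay in cluster 10 (2327 of 3988) and most TP cells in cluster 9 (1018 of 1631), where the summed ratios were 1.10 and 1.13.

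Dermal fibroblast-like cells had 999 CPM in control, from 114 cells, and 790 in TP, from 498, a ratio of 0.791 (0.714 to 0.879) that was 1.02 with TMM. Stat2 and Ifi27 had ratios of 1.05 (0.650 to 1.81) and 0.985 (0.764 to 1.29), which their counting error did not separate from 1. Bst2 was at 110 CPM in control against 46.6 in TP, giving a ratio of 0.426 (0.307 to 0.601), and Oasl2 at 51.2 and 20.6 CPM, a ratio of 0.403 (0.249 to 0.682). Of 27 members passing, 1 (Rsad2, 0 and 23 UMIs) was at least 2-fold higher, against 3.87% of genes, and 5 (Oasl2, Oas1a, Oas2, Bst2 and Gbp3) were at least 2-fold lower, against 15.8%, and 2 were with TMM or at a minimum of 100 UMIs. Of the 23 Rsad2 UMIs 18 lay in 1 TP cell, and the class level of 5.16 CPM in TP lay under the 7.31 CPM that a floor of 3 UMIs gives in control, so the difference was not detectable at this depth. Control cells lay mostly in the clusters led by Nova1 (49 cells) and by C3 and Pi16 (48), and TP cells in the latter (267) and the cluster led by Col1a1 (165), with summed ratios of 0.814, 0.940 and 0.547. The sum of the immediate-early and heat shock list was 2.73 times as high in TP here, and its part was not tested.

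In the other 7 large classes between 0 and 5 members were at least 2-fold apart, and each count stands beside the share of all genes. Upper hair follicle-like cells had none of 19 higher (1.84% of genes) and none lower (6.51%), and endothelial-like cells none of 24 higher (5.63%) or lower (7.44%). In the latter Eif2ak2 had 10 and 46 UMIs and a ratio of 2.03 (1.01 to 4.51) that fell short of the limit once the pseudocount was added, and 1 member was higher with TMM and 1 lower at 5% mitochondrial counts. Inner root sheath-like cells had none of 13 higher (3.29%) and 3 lower (5.92%): Ddx58, Oas1a and Eif2ak2. Outer bulge-like cells, the stem cell zone of the follicle, had 1 of 13 higher (Herc6, 3.7% of genes) and 4 lower (Isg15, Irf7, Usp18 and Parp14, 7.04% of genes). The Herc6 call rested on 3 control UMIs, with an interval of 0.92 to 14.3 on its ratio of 2.85, and was lost with doublets kept, at 5% mitochondrial counts and at a minimum of 100 UMIs, where the 4 lower calls were lost too. Most hair matrix-like cells lay in the cluster led by Kcnip1 and Shh in control (1392) and in that led by Vat1l and Soat1 in TP (352), with summed ratios of 0.724 and 0.831. Hair matrix-like cells had none of 13 higher (3% of genes) and 4 lower (Ddx58, Irf9, Bst2 and Xaf1, 4.27%), dermal sheath-like cells none of 15 higher (4.48%) and 1 lower (Rtp4, 9.34%), and melanocyte-like cells none of 8 higher (6.03%) and 1 lower (Xaf1, 12.6%). With TMM, and also at a minimum of 100 UMIs, the hair matrix-like cells had 2 lower and the dermal sheath-like and melanocyte-like cells 0, which was also their number with doublets kept.

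A few members had the same direction in most of these 11 classes, and a few in all where they passed the minimum. Ifi27 had a ratio above 1 in 9 of 11 (0.896 to 1.45), and in 10 with TMM, and Ifi35 in 9 of 11 (0.857 to 1.76), and in 10 with TMM. Bst2, Parp14 and Xaf1 were below 1 in all 10 classes where each passed the minimum, and Usp18 and Oasl2 in all 7. With TMM the number above 1 was 2 for Bst2, 1 for Parp14, 0 for Xaf1, 1 for Usp18 and 0 for Oasl2. Such runs were not rare among all genes. Of those that passed in at least 7 classes, 11% were below 1 in every one, beside 5 of 17 members, and with TMM 3.38% were, beside 2 of 17. For at least 10 classes it was 10.4% beside 3 of 11 members, and with TMM 2.47% beside 1 of 11. Of those that passed in all 11 classes 12.3% lay above 1 in at least 9, beside 2 of 5 members, and with TMM 26.8% did, beside 2 of 5. The classes share the same pair of libraries and are not replicates.

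Endothelial-like cells were 2 clusters with opposite ratios. The cluster led by Ccl21a, Reln and Prox1 had 54 control and 161 TP cells and a summed ratio of 0.579 (0.512 to 0.655), and the cluster led by Mecom, Flt1 and Pecam1 had 66 and 51 cells and a ratio of 1.30 (1.10 to 1.52). In the class as a whole Isg15 was at 439 CPM in control against 282 in TP, giving a ratio of 0.643 (0.513 to 0.808). Summed over both clusters the macrophage-like ratio was 0.961 (0.865 to 1.07), and 1.31 with TMM. Macrophage-like cells were likewise unevenly sampled: the cluster led by Ccl8 and C1qa had 12 control and 170 TP cells and a ratio of 0.785 on the scale of totals, and that led by F13a1 and Cd163 had 48 and 46 cells and a ratio of 1.13. In macrophage-like cells as a class Ddx60 was at 790 CPM in control against 403 in TP, giving a ratio of 0.510 (0.419 to 0.624). There Isg15 was at 0 UMIs in control against 42 in TP. That is 2.03-fold higher against a floor of 3 UMIs over the class, and the counting interval of the ratio began at 1.58.

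Thinned to 1000 UMIs per cell, 6025 of 33714 control cells (17.9%, 17.5 to 18.3) and 4063 of 17674 TP cells (23.0%, 22.4 to 23.6) had a UMI of any member. The 5362 control and 868 TP cells below that depth were left out, and without thinning the shares were 34.1% and 62.7%. In macrophage-like cells the thinned share was 89.8% in control and 80.5% in TP, and in endothelial-like cells 76.1% and 60.6%. The lowest shares were those of hair shaft-like cells, 5.15% in control and 2.13% in TP at unthinned medians of 3004 and 5209 UMIs, and shares near these values are not read as expression.

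Cells with many members at once were rare and were counted by the number of different members with a UMI after thinning. At least 5 members were found in 24 of 33714 control cells (0.0712%, 0.0456 to 0.106) and 53 of 17674 TP cells (0.2999%, 0.225 to 0.392), a ratio of 4.21 (2.56 to 7.13), and at least 8 members in 1 control and 12 TP cells. At control cluster shares the ratio was 0.905. The limit of 5 was chosen once the distribution had been seen, and the ratio was 4.30 with a limit of 4, 7.25 with a limit of 6 and 6.02 with a second random thinning at a limit of 5, so its size moved with the draw. These cells were neither deeper nor richer in mitochondrial RNA at the median: their median UMI count was 2243 in control and 4226 in TP, against 2263 and 5137 over all thinned cells, and their median mitochondrial share 1.83% and 1.40%, against 4.47% and 3.58%.

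Most of these cells were myeloid, endothelial or stromal. In TP 14 were macrophage-like, 13 lay in the H2-Aa and Ccr2 cluster, 8 were dermal fibroblast-like and 6 endothelial-like, and in control the same classes gave 5, 4, 2 and 7. As a share of its class this was 8.47% of control and 6.51% of TP macrophage-like cells, 7.61% and 3.53% of endothelial-like cells and 1.75% and 1.61% of dermal fibroblast-like cells, with overlapping intervals in each of these 3 classes. In the H2-Aa and Ccr2 cluster it was 14.3% and 13.7%. All myeloid-like cells and that cluster together gave 7.63% (3.72 to 13.6) in control and 8.14% (5.60 to 11.4) in TP. With a limit of 8 members they gave 0 of 131 control cells (0 to 2.78%) and 7 of 381 TP cells (1.84%, 0.742 to 3.75). Keratinocytes of the epidermis, upper follicle and outer bulge gave 0 of 7864 control cells (0 to 0.0469%) and 6 of 10641 TP cells (0.0564%, 0.0207 to 0.123). Hair matrix-like, hair shaft-like and inner root sheath-like cells gave 0 of 8309 in control and 0 of 1502 in TP, which allows up to 0.0361% and 0.200%.

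Single cells with most members ranged widely. In TP the highest was an IFE suprabasal-like cell of 13291 UMIs with 30 of the 33 members and 125 member UMIs, 15 of them Isg15. An IFE basal-like cell of 22281 UMIs held 280 member UMIs over 27 members, with 40 of Rsad2, 31 of Isg15, 22 of Ifit3 and 15 of Ifit1 but 0 of Ifi27. A dermal fibroblast-like cell of 7119 UMIs held 149 over 24 members, 36 of them Ifit1. In control the highest count was 17 members, in a dermal fibroblast-like cell with 23 member UMIs, and the highest sum among the 24 control cells was 58 member UMIs. The counts are at full depth, which was greater in TP.

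How far each member was concentrated in such cells differed widely. For each member the cells were chosen by the other 32 members alone, so that its own counts played no part. Ifit3 and Ifit3b are an exception in part: the counting could have split their reads, so cells could be chosen for each through the other. Ifit3b had 50 UMIs over both libraries. In TP these cells held 0.171% to 0.207% of all UMIs but 63.4% of the Ifit3b, 51.5% of the Ifit3, 46.4% of the Rsad2, 33.8% of the Ifi44, 30.4% of the Oasl1 and 27.3% of the Ifit1 UMIs. At the other end were 1.98% of Stat2, 1.75% of Eif2ak2, 1.498% of Ifi35, 0.552% of Irf9 and 0.112% of Ifi27. Ifi27 was at 63.6 CPM (35.6 to 105) in these TP cells and 101 CPM in the others, and at 124 CPM (49.8 to 255) and 51.6 CPM in control, so counting error did not separate the chosen cells from the rest. Ifi27, Irf9, Ifi35, Eif2ak2 and Stat2 thus had under 2% of their TP UMIs in these cells, and the IFIT genes named, Rsad2, Ifi44 and Oasl1 over 27%. These shares and levels were not matched by class. In TP all macrophage-like cells together held 44.9% of the Oasl1, 36.1% of the Ifi44 and 23.6% of the Rsad2 UMIs. They held 0.560% of the Ifi27 and 1.80% of the Irf9 UMIs. The part of the classes in the spread between members was not tested. Without the 10 cells with most member UMIs in each library, the pooled ratio was 3.93 for Rsad2, 2.20 for Ifit3, 2.09 for Ifit3b and 3.34 for Trim30a.

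Genes outside the list were also higher in these cells. The 53 TP cells were compared with the other TP cells of the same 15 clusters, for the 50 of 80 other listed interferon-related genes with at least 5 UMIs expected. Of these 32 were at least 2-fold higher in the chosen cells, against 2.31% of all non-member genes, with a median fold of 2.47. The UMIs of the chosen cells were pooled, so a few deep cells can weigh on a fold, and their part was not tested. Cxcl10, the chemokine for CXCR3-bearing T cells, was at 1358 against 37.2 CPM, Iigp1 at 404 against 29.2 and Rnf213 at 444 against 45.8. In the 24 control cells 3 of 23 such genes were at least 2-fold higher, against 2.13% of genes, with a median of 1.53. The chosen cells held 78928 UMIs in control and 274735 in TP, and fewer genes reached the minimum in control. The counts of the libraries are therefore not like for like. Ifitm3 was at 2205 against 1421 CPM in the control cells and at 2475 against 1158 in the TP cells, and Ifi27l2a at 950 against 528 and 1762 against 647.

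The ligands were barely seen. Of 21 interferon genes 17 had 0 UMIs in both libraries, which at a floor of 3 UMIs allows up to 0.0284 CPM in control and 0.0226 in TP. Ifnk, the keratinocyte type I interferon, had 84 UMIs in control and 59 in TP, spread over many classes with at most 13 UMIs in a control class and 18 in a TP class. Ifng, the type II interferon, had 8 and 13 UMIs, of which 8 and 11 lay in lymphocyte-like cells. Ifnb1 had 0 UMIs in control and 7 in TP, all in 3 cells of the H2-Aa and Ccr2 cluster, and those cells held 5, 8 and 11 members at full depth and none or 4 after thinning.

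Receptor chains were well counted, and none of the 6 was at least 2-fold apart: Ifnar1 was at 27.4 CPM in control, a ratio of 0.776 (0.737 to 0.818), and Ifngr1 at 51.8 CPM, a ratio of 1.60 (1.55 to 1.65). Of 14 genes of receptor signalling 3 were at least 2-fold higher, against 8.55% of all genes, Jak1 (2.09), Irf1 (2.68) and Socs3 (3.65), and none lower, against 12.4%. At control shares they were at 1.38, 2.52 and 3.85. Irf1 and Socs3 are also early-response genes, and the immediate-early genes Fos and Atf3 had ratios of 3.03 and 4.03. Whether these values are linked was not tested. Of the nucleic acid sensing list 9 of 11 measured genes passed, and 1 of 9 was at least 2-fold higher, a share near the 8.55% of all genes. It was Tlr7, with 23 and 119 UMIs, a ratio of 4.12 pooled and 1.42 at control shares.

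Other interferon-stimulated genes had pooled values like those of the members. Of 49 that passed 15 were at least 2-fold higher, against 8.55% of all genes, and none lower, against 12.4%, with a median log2 ratio of 0.61 that was 0.07 at control shares. Ifitm2, Ifitm3 and Ly6e, which block or shape virus entry, had ratios of 1.62, 1.54 and 1.90, which were 1.33, 1.05 and 1.14 at control shares. Ifi207 had 188 and 2294 UMIs, a ratio of 9.72, and 2.40 at control shares. Of 17 genes that favour interferon gamma 6 were at least 2-fold higher and none lower, against the same 8.55% and 12.4%, with a median of 0.73 that was 0.24 at control shares. The immediate-early and heat shock list, by contrast, had a median of 1.39 pooled and 1.17 at control shares, with 7 of 12 at least 2-fold higher, against 8.55%.

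Across the classes the genes whose level most resembled the summed members were Tor1aip1 (Pearson r = 0.913), Irf2 (0.909), Mctp1 (0.897), Gbp7 (0.896), Arrb1 (0.895), Tgfbr2 (0.894), Cd47 (0.886), Lipa (0.882), Samd9l (0.876) and Txnip (0.876). The r is over 32 points, 16 classes in each of 2 libraries, of log2(CPM + 1), and 14761 genes were screened. Points of a class share cell type and points of a library share depth, so r is a description. Irf2, Gbp7 and Samd9l were on the fixed interferon lists. Among the members Parp14 followed the sum of the others most closely (r = 0.94), followed by Xaf1 (0.90) and Herc6 (0.89), and Ifi27 (0.45) and Oas3 (0.43) least.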

How the data were processed

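Single-cell RNA-seq of dorsal skin was analysed from 1 control and 1 TP library, each a pool of 15 mice. The authors digested the skin with collagenase D, lysed red cells, removed debris on Percoll, made droplet libraries and ran Cell Ranger 8.0.1 against mm10 (per the submitters' processing notes). What the authors deposited are raw UMI counts, 1 whole number for each pair of gene and cell barcode. UMIs count molecules and are not divided by length, and strand or repeat rules beyond Cell Ranger are not given in the sources used here.

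The study's limits were applied (200 to 8000 genes, no more than 10% mitochondrial counts), and the 7.5% with the highest doublet score were removed per library by a rewritten version of the study's procedure. Seurat 5.3.0 in R 4.3.3 integrated both libraries (reciprocal PCA, 2000 variable genes, 30 components) and clustered at resolution 1, with immune and fibroblast clusters divided again at 0.6 and 0.3. Members and all pathway lists were kept out of the features. A cluster was named when its marker score was at least 2, led the next class by 0.5, rested on at least 3 markers, and no other class had more markers among its leading 10 genes. These limits were set after the clusters were seen.

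UMIs were summed per class and library and divided by the total (CPM). The 95% intervals are Poisson (exact) for levels, conditional binomial (exact) for ratios, and Clopper-Pearson for shares of cells. A 2-fold call used a pseudocount of 1 UMI per library and at least 20 UMIs over both. A count of 0 was given a floor of 3 UMIs. TMM factors came from edgeR 4.0.16, which was used for nothing else. The calculations ran in Python 3.11.15 and were tested on simulated counts. No test between conditions was possible with 1 library per group. Given in full were the 12 members with most UMIs, the 3 largest and 3 smallest ratios among members with at least 100 UMIs, and class leaders chosen after their values were seen. Promoters came from RefSeq GRCm38.p6. An item of the lists is not reported here. The members and lists were chosen with earlier results of these data known. Alternatives were TMM, control cluster shares, doublets kept, 5% mitochondrial counts, other minimums and pseudocounts, fewer members or cells, thinning depth and a resolution of 0.5.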

Additional observations from a re-analysis of the deposited data

Results flagged for a closer look

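Barcodes that the comparisons above left out also had a pooled ratio above 1. The 3465 control and 5871 TP barcodes with more than 10% mitochondrial counts held 697 and 1801 member UMIs, or 165 and 224 per 1000000 UMIs that were not mitochondrial. The ratio on that scale was 1.36 (1.24 to 1.48). These barcodes were in no cluster, so their ratio could not be weighted by control shares, which brought that of the kept cells to 0.931. Levels of the kept cells are per UMI of every kind, so the values are on different scales.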

How the results depend on the processing

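No paired analysis was possible because each condition is 1 library, and for the same reason no replicate could be left out. The whole-library ratio of the summed members (1.36) was 1.62 with TMM, 1.27 at 5% mitochondrial counts, 1.32 without the 3 members with most UMIs, 1.33 without the 10 cells with most member UMIs and 0.931 at control cluster shares. Control shares and TMM were not combined. The number of members at least 2-fold higher (9) was 13 with TMM, 1 at control shares and 0 with a pseudocount of 0.1 per 10000, which gave 0 calls in every other large class but dermal fibroblast-like cells (1 lower). With TMM the class ratio passed 1 in IFE basal-like (1.03), IFE suprabasal-like (1.24), dermal fibroblast-like (1.02), neutrophil-like (1.15), macrophage-like (1.31), dendritic and Langerhans-like (1.06), endothelial-like (1.01) and melanocyte-like cells (1.01), and was 1.20 in dermal papilla-like cells. Without the top 3 members it was 0.838 in IFE basal-like, 0.905 in IFE suprabasal-like and 0.912 in dermal papilla-like cells, where keeping doublets gave 1.17. Without 10 cells the lymphocyte-like ratio (1.40) was 0.791. In IFE suprabasal-like cells the number higher was 3 with TMM, 2 with doublets kept, 3 without a filter and 0 at 100 UMIs, and the number lower 1 with TMM. In IFE basal-like cells no filter gave 6 higher and 1 lower, and 100 UMIs gave 0 higher. In dermal papilla-like cells no filter gave 3 higher and 4 lower, 5% mitochondrial counts 0 higher and 100 UMIs 1 lower. In dermal fibroblast-like cells doublets kept and 100 UMIs gave 0 higher, and the number lower was 2 with TMM, 9 without a filter and 2 at 100 UMIs. At control shares 12 of the 26 members above 1 passed below it, 7 of them with a pooled interval above 1: Ifih1 (0.947), Parp14 (0.795), Herc6 (0.995), Ddx60 (0.714), Ifit2 (0.777), Oas1a (0.614) and Zbp1 (0.907). The share of all genes that passed below 1 in this way was not computed, so the count is not read as particular to the members. Shares of cells with a member UMI were 34.1% and 62.7% without thinning and 32.2% and 38.6% at 2000 UMIs. The ratio of cells with at least 5 members was 7.25 for at least 6 and 0.905 at control shares, both chosen after the data were seen. By median rank over single members, macrophage-like and endothelial-like cells tied at 1.5, dendritic and Langerhans-like cells were at 3.5 and neutrophil-like cells at 7. The cause of these changes was not tested. Few UMIs limit single members (50 over both libraries for Ifit3b, 132 for Oas3 and 208 for Ifit3), and under 100 control cells limit macrophage-like, neutrophil-like, Schwann-like and dendritic and Langerhans-like cells.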
